A study of Mus musculus with 12 samples.

Results

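Transcripts of the erythroid transcription factors Gata1, Klf1, Tal1, Nfe2, Zfpm1, Lmo2 and Gfi1b and of the erythropoietin receptor, Epor, were followed in mouse spleens. Every probe set whose single gene symbol in the platform annotation was 1 of these 8 genes was taken, which gave 9 of the 45101 probe sets on the array. Zfpm1 had 2 probe sets, 1451046_at and 1423603_at, and each other gene had 1. The spleens came from 12 BALB/c mice in 4 groups of 3. The groups were Il1rn-deficient (ko) mice at 4 months, wild-type (wt) mice at 4 months, ko mice at 1 month and wt mice at 1 month. Il1rn encodes the interleukin-1 receptor antagonist, and BALB/c mice without it are known to develop arthritis spontaneously. The title of the study asks for arthritis-related genes of particular phases, so the comparisons are ko against wt at each age and 4 months against 1 month in each genotype. The labels do not give the sex of the mice, the Il1rn allele or any shared litter. All tissue was whole spleen, so cells of every splenic type contributed RNA.

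In mice the spleen is a site of red cell formation after birth as well as an immune organ, and its erythroid activity is known to rise in anaemia and inflammation. GATA1 binds DNA with TAL1, LMO2 and the bridging protein LDB1 in a complex that activates erythroid genes, and FOG1, the product of Zfpm1, binds GATA1 directly as its cofactor. KLF1 binds CACC-type motifs in globin and red cell membrane genes, NF-E2 (the Nfe2 subunit with a small MAF partner) binds globin control regions, and GFI1B is a repressor needed for red cells and platelets. EPOR receives erythropoietin at the surface of erythroid progenitors and signals through JAK2 and STAT5 to keep them alive. Most of these factors also act in megakaryocytes, the cells that make platelets.

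The sequences just upstream of the transcript starts are shown because the factors are known to bind their own and each other's genes, and the expression values below concern how far the genes move together. The windows are the 250 bases before the start in RefSeq's annotation of GRCm38.p6, read 5′ to 3′ on the strand of the gene, and they are of the reference strain of the assembly. Of the 8 genes, 6 were matched, with 7 windows because Tal1 had 2. Nfe2 and Lmo2 are named only. Capitals mark the GATA motif, spelled AGATAA or AGATAG with an A in front and TGATAA or TGATAG with a T in front, and the CACC-type motif, spelled CCNCNCCC. All were searched on either strand, with overlapping CACC-type matches run together. The window of Gata1 (chrX:7967911-7968160, minus strand) held 3 CACC-type matches and no GATA match. The window of Klf1 (chr8:84901732-84901981, plus strand) held 1 GATA match, 80 bases before the start. The first window of Tal1 (chr4:115056176-115056425, plus strand) held 1 GATA match, 205 bases before the start. The window of Epor (chr9:21963577-21963826, minus strand) held 1 GATA match, 54 bases before the start, and 4 CACC-type matches, which overlap in pairs.
Gata1: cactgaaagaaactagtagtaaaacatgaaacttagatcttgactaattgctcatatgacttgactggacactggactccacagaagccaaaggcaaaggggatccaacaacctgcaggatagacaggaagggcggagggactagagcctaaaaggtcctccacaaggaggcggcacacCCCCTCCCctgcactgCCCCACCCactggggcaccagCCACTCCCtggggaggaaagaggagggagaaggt
Klf1: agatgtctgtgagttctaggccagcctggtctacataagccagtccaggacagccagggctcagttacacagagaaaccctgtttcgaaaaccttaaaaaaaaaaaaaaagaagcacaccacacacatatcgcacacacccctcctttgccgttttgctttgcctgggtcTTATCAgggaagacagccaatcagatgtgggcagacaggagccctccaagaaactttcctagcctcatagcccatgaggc
Tal1: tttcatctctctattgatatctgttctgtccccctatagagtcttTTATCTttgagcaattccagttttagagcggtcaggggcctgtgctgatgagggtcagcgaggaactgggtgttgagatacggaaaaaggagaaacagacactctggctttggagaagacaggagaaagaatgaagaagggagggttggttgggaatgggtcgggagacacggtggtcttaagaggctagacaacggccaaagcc
Epor: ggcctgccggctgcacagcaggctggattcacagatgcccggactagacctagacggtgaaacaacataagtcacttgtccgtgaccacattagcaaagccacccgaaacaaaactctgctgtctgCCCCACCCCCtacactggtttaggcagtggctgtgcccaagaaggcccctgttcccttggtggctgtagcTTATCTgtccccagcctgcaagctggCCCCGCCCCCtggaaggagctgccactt

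A GATA match stood in 4 of the 7 windows, in those of Epor, Klf1, Gfi1b and Tal1, against 26.5% of all 32851 RefSeq windows of this length. A CACC-type match stood in 5 of the 7, against 45.9% of all windows. The E-box (CANNTG), the motif of TAL1 and its partners, was found in 4 of the 7, against 66.2% of all windows. With 7 windows these counts are descriptions, and a match is not a measured binding site.

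**Figure D1:**
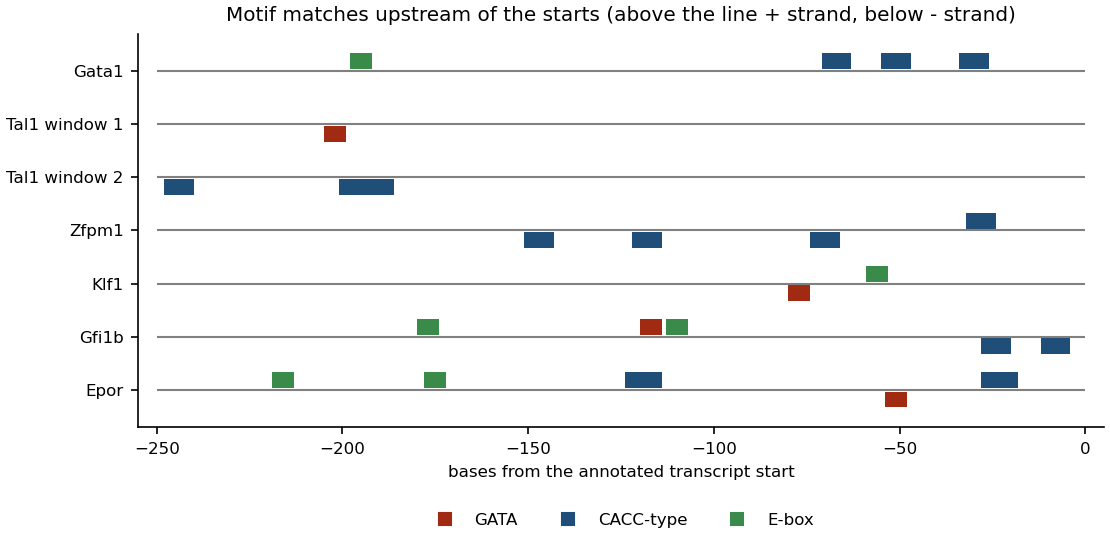
Positions of motif matches in the 250 bases before each annotated start, for 7 windows of 6 genes. The x axis is the distance from the start in bases, boxes above a line are matches on the strand of the gene and boxes below it matches on the other strand, and colours stand for the 3 motifs. GATA matches stand in 4 windows, at 54 bases before the start in Epor, 80 in Klf1, 120 in Gfi1b and 205 in the first Tal1 window.

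Values are MAS5 signals on a linear scale in arbitrary units, scaled to a 2% trimmed mean of 500 per array, and a level can be compared between arrays for 1 probe set but not between probe sets. The median signal of an array was 113 to 148, and 52.1% to 59.2% of probe sets reached 100. All 9 member probe sets passed the filter for testing, which asks 3 of the 12 arrays to reach 100, as did 27041 probe sets in all. Il1rn itself had 3 probe sets, each with a lower mean in ko at each age. One was called at each age, at 21.9 ± 16.6 in ko against 209 ± 61.5 in wt at 4 months (adjusted p 0.00340) and 23.3 ± 17.5 in ko against 142 ± 21.5 in wt at 1 month (adjusted p 0.0403; SD, n = 3). The other two were not called, at 52.8 in ko against 119 in wt and 46.5 in ko against 143 in wt at 4 months (adjusted p 0.543 and 0.0739), and with adjusted p of 0.411 and 0.382 at 1 month. In 6 arrays the highest deposited signal was 33427 to 37921 (the low set) and in the other 6 it was 51247 to 68987 (the high set). At 1 month the low set took in all 3 ko spleens and 1 of the wt spleens, while at 4 months each genotype had 1 low and 2 high arrays. Pancreas transcripts summed to 154631 in wt replicate 2 at 4 months and to 1326 to 2554 in the other 11 arrays. Calls were made with limma where the p-value, adjusted by Benjamini and Hochberg's method over all tested probe sets, was under 0.05, and every adjusted p below is of that kind. As nothing says how the mice were housed or sampled, the p-values measure the spread between these 12 spleens.

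At 4 months the erythroid factors were higher in ko than in wt spleens. Of the 9 member probe sets, 6 were called higher and 0 lower, for Tal1, Nfe2, Epor, Klf1, Zfpm1 (1451046_at) and Gata1, where 1.78% of all tested probe sets were called higher, 0.518% lower and 2.30% in either direction. The called members were 2.26-fold to 2.74-fold higher in ko. The median log2 difference over the 9 was 1.21, against -0.01 over all tested probe sets, whose 5th and 95th percentiles were -0.53 and 0.65. In 8 of the 9, all 3 ko values lay above all 3 wt values, which held for 10.9% of all tested probe sets. In whole spleen, fewer or more erythroid cells and less or more of a transcript per cell cannot be told apart.

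**Figure D2:**
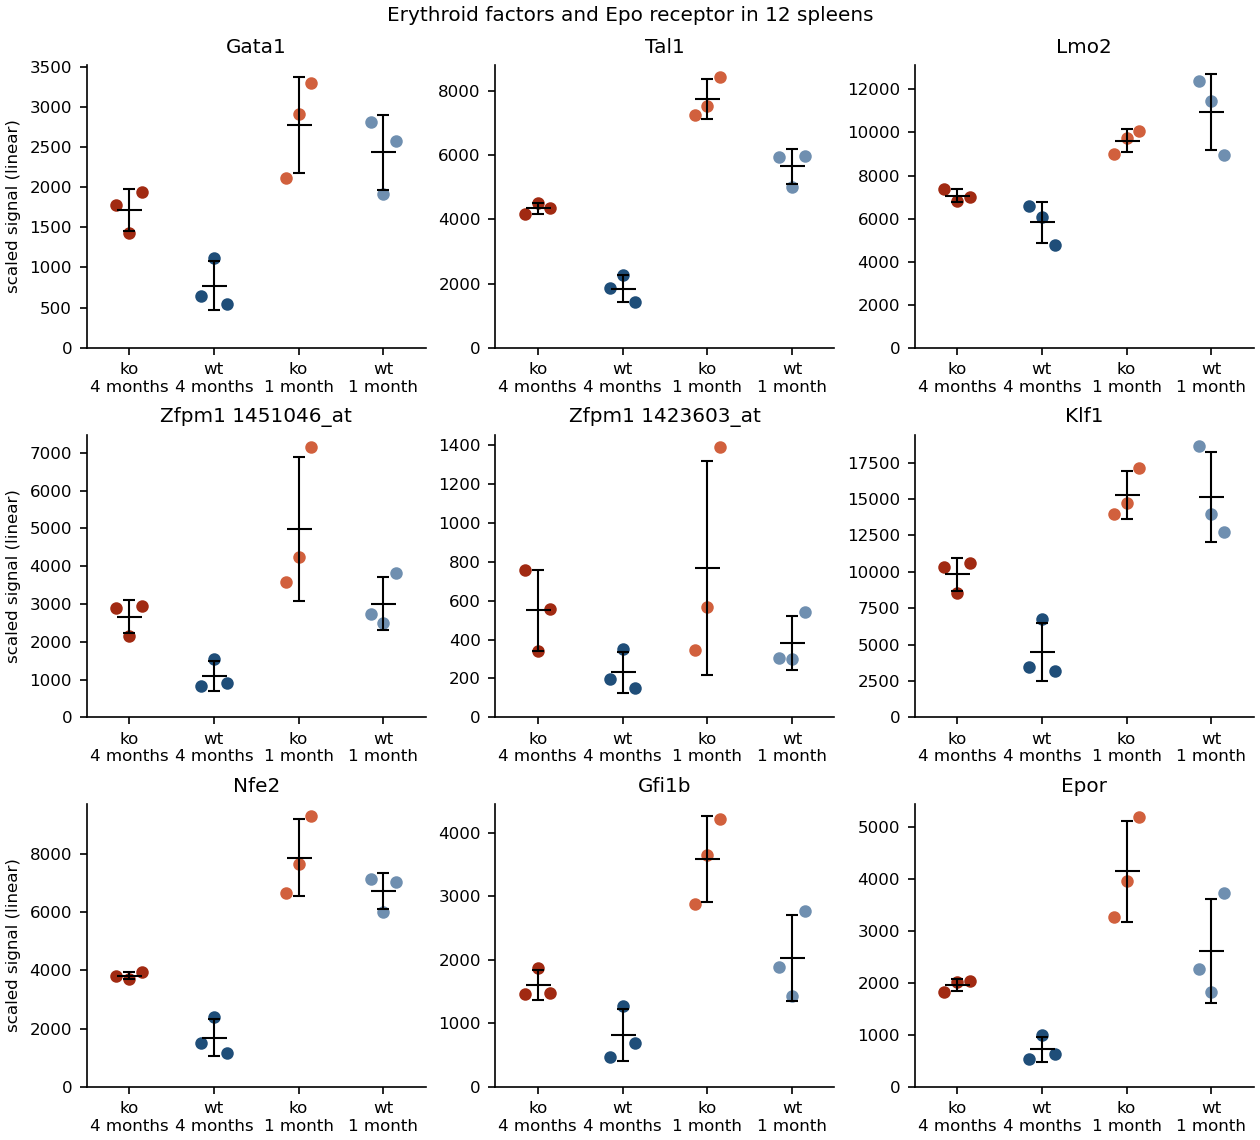
Scaled signal (y axis, linear) of each member probe set in the 12 arrays. Points are mice, in order of replicate number within a group, horizontal bars are group means and whiskers 1 SD (n = 3), and each panel has its own axis starting at 0. The wt arrays at 4 months are the lowest group for each gene, and replicate 2 is the highest of the 3 in every panel except that of Lmo2.

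Gata1 encodes the zinc finger factor without which red cell precursors die before maturing. Its signal at 4 months was 1784, 1427 and 1942 in the ko spleens, against 651, 1124 and 544 in the wt spleens. All ko values were above the wt values, although wt replicate 2 came close to the lowest ko spleen. The difference was 2.26-fold (95% interval 1.60 to 3.19), a log2 of 1.17 with a standard error (SE) of 0.24 and an adjusted p of 0.0147.

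Tal1 encodes the helix-loop-helix protein of the complex and is needed for the first blood cells to form. It read 4175, 4494 and 4338 in ko, against 1858, 2259 and 1410.5 in wt spleens at 4 months. The ko spleens lay close together and well above every wt spleen. Tal1 had the smallest p of the members, with a log2 difference of 1.25 (SE 0.16, adjusted p 0.000558), or 2.37-fold with an interval of 1.89 to 2.98.

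Lmo2, the non-DNA-binding bridge of the complex, stood apart. It read 7393, 6815 and 6985 in ko against 6593, 6092 and 4784 in wt spleens at 4 months. The groups did not overlap, but the gap between the lowest ko and the highest wt spleen was small. The difference was 1.22-fold with an interval of 0.982 to 1.52 (log2 0.29, SE 0.15, adjusted p 0.364) and was not called.

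Zfpm1 encodes FOG1, the cofactor that GATA1 needs for most of its erythroid work. On 1451046_at it read 2888, 2165 and 2942 in ko against 833, 1543 and 900.2 in wt spleens at 4 months, a log2 difference of 1.30 (SE 0.26, adjusted p 0.0134). On the dimmer 1423603_at it read 758, 341 and 555 in ko against 195, 349 and 148 in wt spleens. There the groups overlapped, since wt replicate 2 exceeded ko replicate 2. The second probe set gave a similar difference, a log2 of 1.16, but with an SE of 0.40 and an adjusted p of 0.161 it was not called.

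Klf1 encodes the activator of globin and red cell membrane genes. It read 10317, 8531 and 10634 in ko against 3462, 6760 and 3174 in wt spleens at 4 months. The highest wt spleen, replicate 2, was nearer to the lowest ko spleen than to the other wt spleens. The difference was 2.32-fold with an interval of 1.66 to 3.23 (log2 1.21, SE 0.23, adjusted p 0.0103).

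Nfe2 encodes the larger subunit of NF-E2, which acts in erythroid cells and in platelet formation. It read 3819, 3702 and 3926 in ko against 1503, 2386 and 1171 in wt spleens at 4 months. The ko spleens spanned a narrow range above all wt spleens, and the log2 difference was 1.22 (SE 0.20, adjusted p 0.00411).

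Gfi1b, the repressor, read 1467, 1867 and 1471 in ko against 476, 1267 and 688 in wt spleens at 4 months. The groups did not overlap, and the wt spleens were widely spread. The log2 difference of 1.06 (SE 0.28) had an adjusted p of 0.0631 and was not called. Without wt replicate 2 it was 1.42 with an adjusted p of 0.00398.

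Epor, the receptor, had the highest estimate of the 9 probe sets. It read 1816, 2010.5 and 2045 in ko against 527, 999 and 626 in wt spleens at 4 months, with no overlap. It was 2.74-fold higher in ko, with an interval of 1.90 to 3.96 (log2 1.46, SE 0.25, adjusted p 0.0060).

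Wt replicate 2 at 4 months, the array with pancreas transcripts, was the wt array nearest to ko for every member except Lmo2. Without it 7 members were called and the differences grew, to a log2 of 1.55 for Klf1, 1.71 for Epor and 1.40 for Tal1, while the calls over all 27041 tested probe sets went up as well, to 991 without it against 621 with it. When ko replicate 3, wt replicate 1 or wt replicate 3 of that age was left out, 3 members were called, and the calls over all probe sets were 161, 274 and 245 in these cases. The high set held 2 ko and 2 wt arrays at 4 months, and the wt arrays were replicate 1 and replicate 2, the array with pancreas transcripts. Within this set alone the log2 differences were 1.04 for Tal1, 1.11 for Klf1, 1.02 for Nfe2, 1.37 for Epor, 1.09 for Gata1 and 1.34 for Zfpm1 (1451046_at). Within the low set, with 1 array of each genotype at 4 months, they were 1.65, 1.42, 1.63, 1.64, 1.34 and 1.24 for the same genes in that order. All 6 genes thus pointed the same way in each set, although 2 were called within the high set, where 84 were called over all probe sets. With the array set as a block, 7 were called, Gfi1b being added at an adjusted p of 0.0484, and 802 over all probe sets.

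At 1 month none of the members passed the test. Of the 9 probe sets 0 were called in either direction by limma and 4 had an unadjusted p under 0.05, where 0.444% of all tested probe sets were called and 15.8% had an unadjusted p under 0.05. The median log2 difference was 0.45, against -0.04 over all tested probe sets. Gfi1b and Tal1 had no overlap between the genotypes, with all ko values above all wt values, which held for 7.99% of all tested probe sets.

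Gfi1b read 2880.3, 3644 and 4223 in ko against 1883, 1428 and 2764 in wt spleens at 1 month. Its lowest ko spleen was just above its highest wt spleen, and the log2 difference was 0.85 (SE 0.28, adjusted p 0.176). Tal1 read 7251, 7514 and 8441 in ko against 5936, 5017 and 5978 in wt spleens of that age. Its ko spleens were clear of the wt spleens, with a log2 difference of 0.45 (SE 0.16, adjusted p 0.189).

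Epor read 3267, 3967 and 5199.7 in ko against 2263, 1821 and 3737 in wt spleens at 1 month. Wt replicate 3 lay among the ko values, and the log2 difference of 0.70 (SE 0.25) had an adjusted p of 0.201. Zfpm1 on 1451046_at read 3573, 4236 and 7159 in ko against 2723, 2500.4 and 3812 in wt spleens. Its ko replicate 3 stood far above the other arrays, and the log2 difference was 0.68 (SE 0.26, adjusted p 0.219). On 1423603_at Zfpm1 read 348, 565 and 1390.2 in ko against 307, 299 and 544 in wt spleens. Ko replicate 3 was again the highest, and the log2 difference was 0.77 (SE 0.40, adjusted p 0.362).

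The remaining members had estimates nearer to 0 at 1 month. Gata1 read 2120.3, 2911 and 3294 in ko against 2813, 1916 and 2580 in wt spleens, with the groups interleaved and an interval of -0.32 to 0.68 for the log2 difference of 0.18. Klf1 read 13987, 14707 and 17143 in ko against 18616, 13989 and 12751 in wt spleens, where the highest and the lowest value were both wt. Its log2 difference was 0.03 with an interval of -0.45 to 0.51. Nfe2 read 6666, 7645 and 9291 in ko against 7121, 6002 and 7045 in wt spleens, and its log2 difference of 0.22 had an interval of -0.21 to 0.64. Each of these 3 intervals holds differences in either direction. Lmo2 was the one member with a lower mean in ko at 1 month, at 9020.3, 9747 and 10080.3 in ko against 12399, 11482 and 8966 in wt spleens. Wt replicate 3 was below all ko spleens, and the log2 difference of -0.17 (SE 0.15, adjusted p 0.590) was not called.

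The array sets touch this comparison, because all ko spleens and wt replicate 3 belonged to the low set. Without wt replicate 3, Gfi1b and Epor were called at 1 month, with log2 differences of 1.09 (adjusted p 0.0407) and 0.99 (adjusted p 0.0272). The gain in calls was general, as 1590 of all 27041 tested probe sets were then called, against 120 with that array. Within the low set, with 3 ko arrays and 1 wt array, the log2 differences were 0.35 for Gfi1b, 0.12 for Epor and 0.37 for Tal1. With the array set as a block, 0 members were called at 1 month by limma and 45 probe sets in all, and the log2 differences were 0.65 for Gfi1b (adjusted p 0.550), 0.54 for Epor (adjusted p 0.572) and 0.53 for Tal1 (adjusted p 0.354). Ko replicate 3 was the highest of the 12 arrays for Zfpm1, Epor, Gfi1b, Gata1, Tal1 and Nfe2. It was also the highest for the eosinophil transcripts Prg2, at 5253, and Epx, at 1335. In the other 11 arrays these were 112 to 946 for Prg2 and 13.7 to 153 for Epx. The eosinophil marker Ccr3, by contrast, was at 583 in ko replicate 3, the lowest of the 12 arrays. Siglecf, too dim to be tested, was at 62.7 there, its highest value. The part of these transcripts in the result was not tested. Without ko replicate 3 the 1 month log2 differences were 0.39 for Zfpm1 (1451046_at), 0.53 for Epor and 0.72 for Gfi1b. Of the members 0 were then called, and 36 of all 27041 tested probe sets, against 120 with that array.

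**Figure D3:**
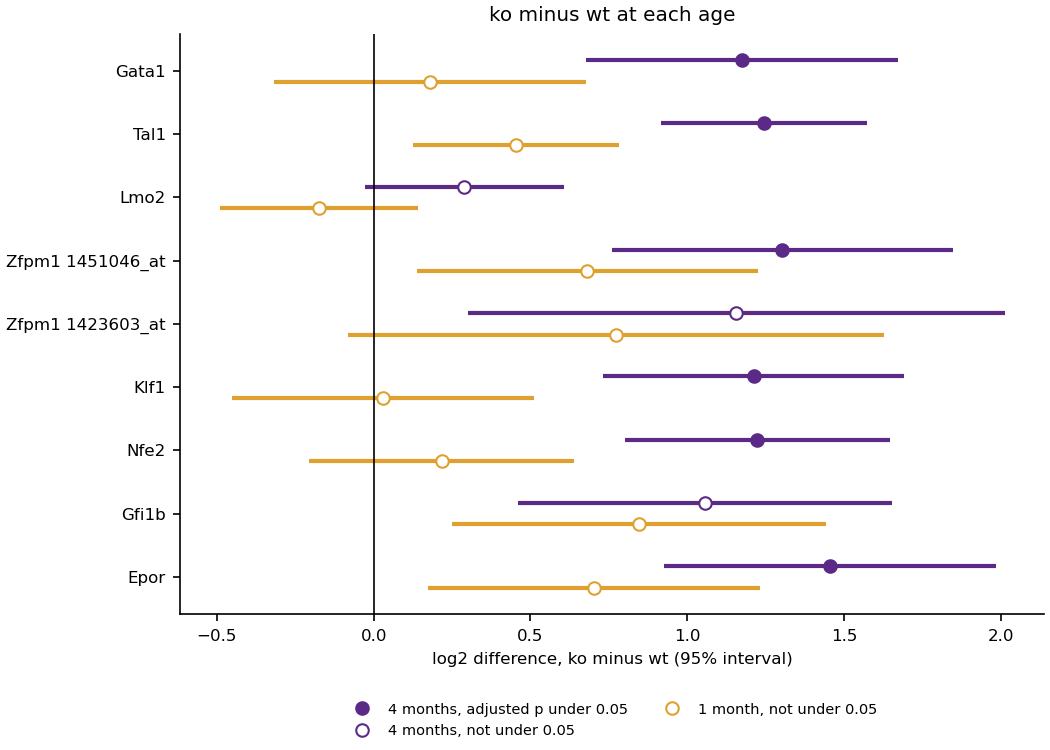
Log2 difference in scaled signal, ko minus wt (x axis), for each member probe set at 4 months (upper marker of each pair) and 1 month (lower marker). Lines are 95% intervals from limma, filled markers have an adjusted p under 0.05 and open markers do not. The 6 filled markers are all at 4 months, from 1.17 for Gata1 to 1.46 for Epor, and the 1 month estimates run from -0.17 for Lmo2 to 0.85 for Gfi1b.

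Averaged over both ages, 7 of the 9 members were called higher in ko and 0 lower, where 2.83% of all tested probe sets were called higher and 2.56% lower. Gfi1b joined the genes called at 4 months, with a mean log2 difference of 0.95 (adjusted p 0.0146), while that of Lmo2 was 0.06 (adjusted p 0.795). When ko replicate 3 at 1 month was left out, 4 members were called, and 407 probe sets were called in all, against 1457 with that array.

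Whether the genotype difference itself changed between the ages was tested by the interaction, the difference at 4 months minus that at 1 month. By limma 0 of the 9 members were called and 6 had an unadjusted p under 0.05, where 0.0481% of all tested probe sets were called and 8.65% had an unadjusted p under 0.05. Klf1 had the highest estimate, a log2 of 1.18 (SE 0.32, adjusted p 0.280). Nfe2 followed with 1.01 (SE 0.28, adjusted p 0.303), then Gata1 with 0.99 (SE 0.33, adjusted p 0.405) and Tal1 with 0.79 (SE 0.22, adjusted p 0.295). Gfi1b, whose 2 genotype estimates were close, had 0.21 (SE 0.40, adjusted p 0.913). Without wt replicate 2 at 4 months Klf1 and Nfe2 were called, at 1.52 (adjusted p 0.0123) and 1.28 (adjusted p 0.0213), while 92 probe sets were called over the whole array, against 13 with that array. Over all 12 arrays, a genotype difference that changed with age was therefore not shown for any member.

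All 8 genes were lower at 4 months than at 1 month in wt spleens. In wt, 8 of the 9 members fell and 0 rose, where 9.67% of all tested probe sets fell, 11.8% rose and 21.4% were called either way. Nfe2 fell the most, with a log2 difference of -2.03 (SE 0.20, adjusted p 5.29e-06), which is 4.09-fold lower at 4 months. Klf1 was 3.53-fold lower (log2 -1.82, adjusted p 3.96e-05), Epor 3.48-fold lower (log2 -1.80, adjusted p 0.00011) and Gata1 3.17-fold lower (log2 -1.66, adjusted p 0.000126). Tal1 was 3.07-fold lower (log2 -1.62, adjusted p 4.47e-06) and Zfpm1 on 1451046_at 2.76-fold lower (log2 -1.47, adjusted p 0.000855). Gfi1b was 2.54-fold lower (log2 -1.35, adjusted p 0.00321) and Lmo2 1.87-fold lower (log2 -0.91, adjusted p 0.000505). Zfpm1 on 1423603_at was not called, with a log2 difference of -0.68 (SE 0.40, adjusted p 0.247). In the 8 called probe sets no wt value at 4 months reached any wt value at 1 month, which held for 13.2% of all tested probe sets.

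In ko spleens 7 of the 9 members fell with age and 0 rose, where 9.25% of all tested probe sets fell, 13.6% rose and 22.9% were called either way. Gfi1b had a log2 difference of -1.14 (SE 0.28, adjusted p 0.00858), Epor -1.05 (SE 0.25, adjusted p 0.00696) and Nfe2 -1.02 (SE 0.20, adjusted p 0.00191). Zfpm1 on 1451046_at fell by 0.85 on the log2 scale (adjusted p 0.0261), Tal1 by 0.83 (adjusted p 0.00149) and Lmo2 by 0.44 (adjusted p 0.0426). Gata1, with a log2 difference of -0.67, was at the threshold itself, at an adjusted p of 0.04996. Klf1, with -0.64 and an adjusted p of 0.0538, was just beyond it. The array sets touch this comparison too, as all ko arrays at 1 month were low and 2 of those at 4 months high. With the array set as a block 7 members were called by limma, and 4948 over all probe sets. Klf1 was then called, at -0.91 (adjusted p 0.00836), and Gfi1b was not, at -0.94 (adjusted p 0.0502). When ko replicate 3 at 1 month, or ko replicate 1 or 2 at 4 months, was left out, 4 members were called, with 4181, 3653 and 5332 calls over all probe sets in these cases, against 6187 with all arrays.

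The mean at 4 months as a share of the mean at 1 month shows the same values on a linear scale. For Klf1 it was 64.3% in ko and 29.5% in wt, for Gata1 61.9% in ko and 31.7% in wt, and for Tal1 56.1% in ko and 32.6% in wt. For Nfe2 it was 48.5% in ko and 25.1% in wt, and for Epor 47.2% in ko and 27.5% in wt. Gfi1b had 44.7% in ko and 40.0% in wt, the closest pair of shares among the 9 probe sets. The test of the difference between the genotypes in these changes is the interaction above, since the 4 comparisons of pairs of groups share their arrays.

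**Figure D4:**
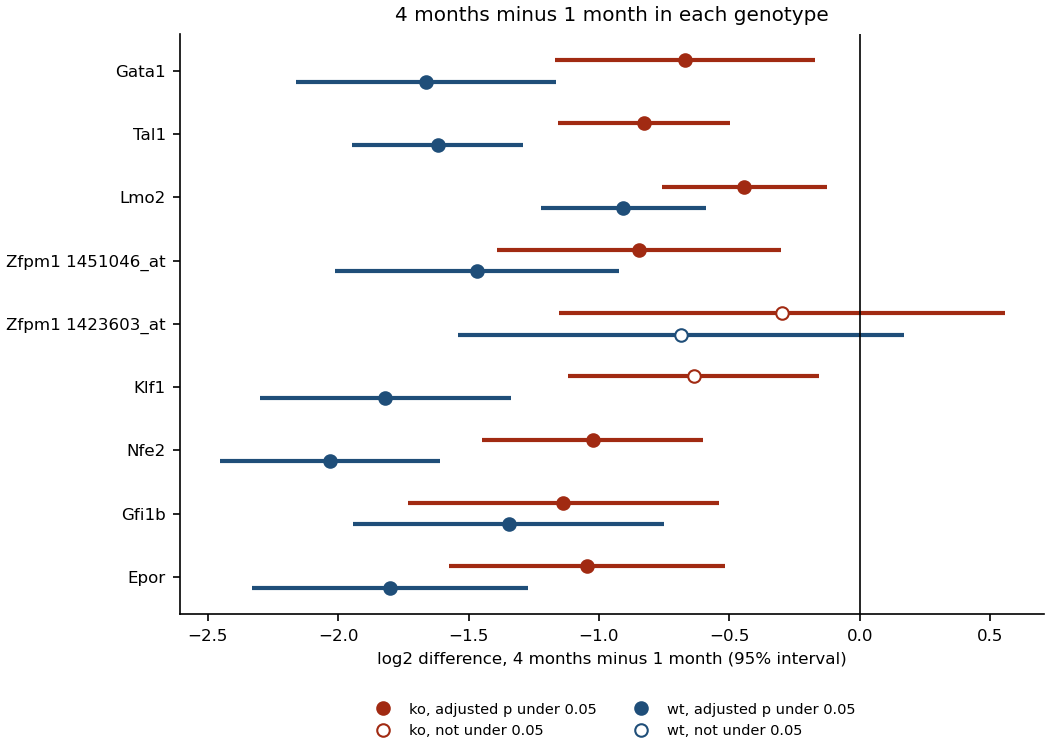
Log2 difference in scaled signal, 4 months minus 1 month (x axis), for each member probe set in ko (upper marker of each pair) and wt (lower marker). Lines are 95% intervals from limma, filled markers have an adjusted p under 0.05 and open markers do not. All 18 estimates are below 0, and the wt estimate is below the ko estimate for each probe set, from -0.68 for Zfpm1 (1423603_at) to -2.03 for Nfe2 in wt.

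The order of the group means was alike for most members. The ko spleens at 1 month had the highest mean for 7 of the 8 genes, Lmo2 being the exception, with its highest mean in wt spleens at 1 month. For Tal1 the means were 4336 ± 159 in ko and 1843 ± 425 in wt at 4 months, and 7735 ± 625 in ko and 5643 ± 543 in wt at 1 month (SD, n = 3). For Klf1 they were 9828 ± 1134 in ko and 4465 ± 1993 in wt at 4 months, and 15279 ± 1654 in ko and 15119 ± 3091 in wt at 1 month, so the 1 month groups cannot be ordered. For Epor they were 1957 ± 123 in ko and 717 ± 249 in wt at 4 months, and 4144 ± 979 in ko and 2607 ± 1003 in wt at 1 month. Its 1 month groups overlapped each other, and ko at 4 months overlapped wt at 1 month, so only wt at 4 months stood clear of its neighbour in the order.

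Across the 12 arrays the members moved closely together. Pearson's r between log2 signals, 1 probe set per gene, was 0.64 to 0.98 over the 28 pairs of genes, with a median of 0.94. These points share array, group and age, so r was also taken after each group's mean was removed, which gave -0.31 to 0.94 with a median of 0.69. Tal1 with Nfe2 and Gfi1b with Epor had 0.94 on that measure, and Gata1 with Nfe2 had 0.93. Lmo2 was the outlying gene, with -0.31 to Epor and -0.29 to Gfi1b. Over the 21 pairs without Lmo2 the values after group means were 0.43 to 0.94. What single arrays share stays in these values. Wt replicate 2 at 4 months, the array with pancreas transcripts, lay above its group's mean for each gene. It did so by 0.32 for Tal1 to 0.74 for Gfi1b, but by 0.08 for Lmo2. Lmo2 was at -0.27 from its group's mean in wt replicate 3 at each age, the wt arrays of the low set. Correlations without single arrays or within an array set were not taken. All are descriptions over 12 arrays.

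The mean centred log2 profile of the 8 genes was -0.03, -0.11 and 0.01 in ko and -1.37, -0.66 and -1.46 in wt spleens at 4 months. At 1 month it was 0.55, 0.77 and 1.05 in ko and 0.49, 0.20 and 0.57 in wt spleens. Among single-symbol genes that are not members, the profile was most like that of Pigq and Tmcc2, each with a Pearson r of 0.994 over the 12 arrays, and Plk1 with 0.993. Stx2, Sphk1 and Dmtn had 0.991, Smox 0.989, Kcnn4 and Icam4 0.988 and Mcm7 0.987. All 10 were called higher in ko at 4 months, with log2 differences of 0.68 for Mcm7 to 1.48 for Dmtn, and none was called at 1 month. They were picked for their likeness, so these calls repeat the members' pattern.

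The genes that work with the members were counted from lists. Of 19 tested genes for LDB1 complex partners, small MAF proteins and corepressors, 0 were called at 4 months and 0 at 1 month by limma, with median log2 differences of 0.18 at each age. The 3 of smallest p at 4 months were Cbfa2t3, whose product ETO2 is a corepressor in the TAL1 complex, with 0.77 (SE 0.21, adjusted p 0.0690), Mafg, a small MAF partner of NF-E2, with 0.61 (SE 0.18, adjusted p 0.0884), and Lyl1, a relative of TAL1, with 0.54 (SE 0.17, adjusted p 0.119). Averaged over both ages 4 of the 19 were called higher, these 3 and Ssbp3, which encodes a protein that binds LDB1, at 0.62 (adjusted p 0.0167). The partners' median at 4 months was thus 0.18, beside 1.21 for the members and -0.01 over all tested probe sets.

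The 21 other blood transcription factors had a median log2 difference of 0.08 between the genotypes at 4 months. Of these, 2 were called higher in ko than in wt spleens and 0 lower. They were Sox6, a repressor of embryonic globin in definitive red cells, with 1.24 (SE 0.16, adjusted p 0.000644), and E2f2, which acts in the cell cycle of erythroblasts, with 1.22 (SE 0.20, adjusted p 0.00485). Sox6 read 1471 ± 34.9 in ko against 615 ± 151 in wt spleens (SD, n = 3). E2f4, of the same family as E2f2, had 0.75 (SE 0.26, adjusted p 0.156). Gata2, which precedes Gata1 in progenitors and mast cells, had 0.05 (SE 0.18, adjusted p 0.929) at 4 months and 0.05 (adjusted p 0.927) at 1 month.

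The 20 tested genes of Epo receptor signalling had a median log2 difference of 0.01 between the genotypes at 4 months. Of these, 0 were called higher in ko than in wt spleens and 1 lower. The gene called lower in ko was Sos1, an exchange factor for RAS, with -0.74 (SE 0.17, adjusted p 0.0274). Pim1, a kinase induced by STAT5, had 0.58 (SE 0.16, adjusted p 0.0758) and Bcl2l1, which encodes the survival protein BCL-XL, had 0.50 (SE 0.17, adjusted p 0.141). Averaged over both ages these 2 were called higher, with 0.43 (adjusted p 0.0397) and 0.49 (adjusted p 0.0281). Epo, Lyn and Erfe were not analysed here.

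Of 35 tested erythroid target genes, out of 46 listed, 22 rose at 4 months in ko against wt and 0 fell, with a median log2 difference of 0.85. Of all tested probe sets, 1.78% were called higher and 0.518% lower. Slc4a1, the anion exchanger of the red cell membrane, had 1.14 (SE 0.16, adjusted p 0.00147), Icam4, a red cell adhesion molecule, 1.29 (SE 0.19, adjusted p 0.00189) and Ank1, the ankyrin of the membrane skeleton, 1.45 (SE 0.21, adjusted p 0.00196). At 1 month 0 of the 35 were called by limma, with a median of 0.04. With age 23 fell in ko and 34 fell in wt, with medians of -0.72 in ko and -1.50 in wt. Over all tested probe sets 9.25% fell in ko and 9.67% in wt. The count at 4 months was 14, 12 and 6 without ko replicates 1, 2 and 3, was 8, 26 and 8 without wt replicates 1, 2 and 3, and was 3 within the high set of arrays. The calls over all probe sets moved as well, from 621 to 277, 246 and 161 without these ko replicates. They were 274, 991 and 245 without these wt replicates, and 84 within the high set.

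**Figure D5:**
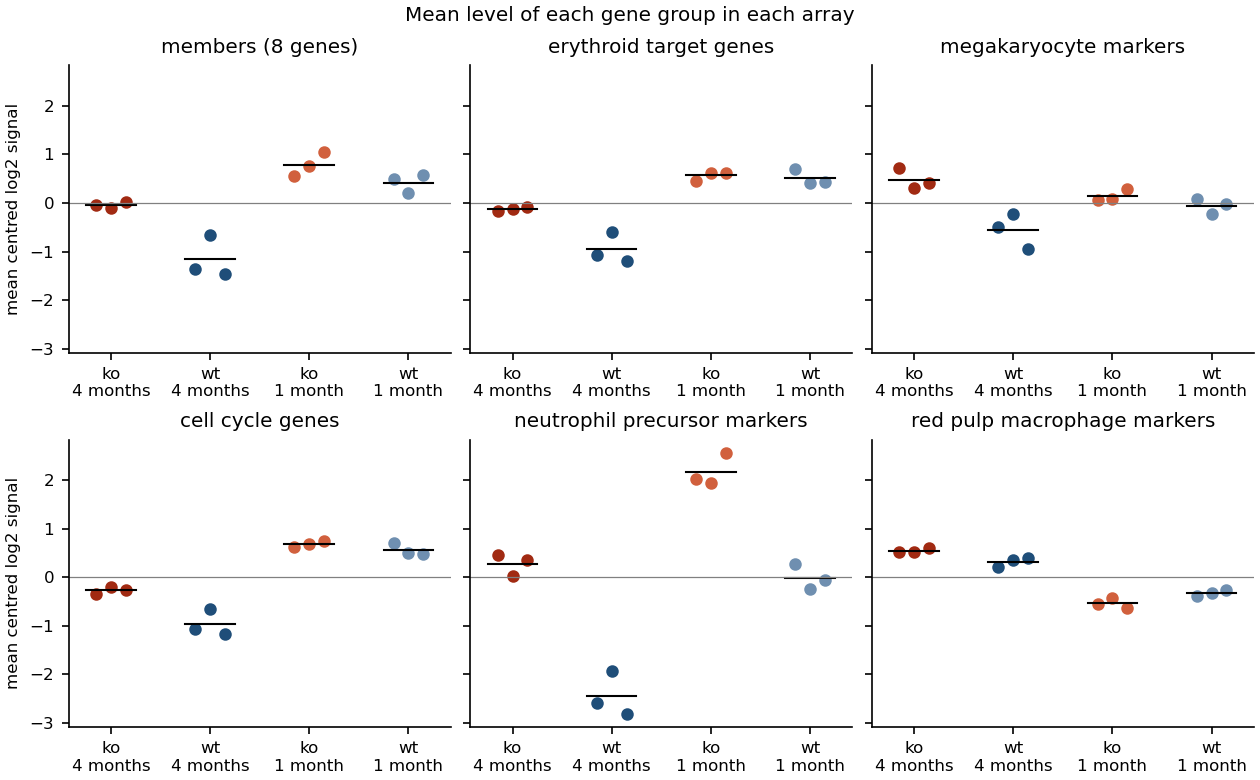
Mean centred log2 signal (y axis) of the 8 members and of 5 gene groups in each of the 12 arrays. Points are mice and horizontal bars are group means, and all panels share 1 scale. The members, the erythroid target genes and the neutrophil precursor markers are lowest in the wt spleens at 4 months. Megakaryocyte markers (-0.95 to -0.23) and cell cycle genes (-1.17 to -0.65) are also lowest in that group. The neutrophil precursor markers are highest in the ko spleens at 1 month. The red pulp macrophage markers are higher at 4 months than at 1 month.

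Markers of other cell types moved beside the members at 4 months. Of 13 megakaryocyte markers 10 rose in ko against wt and 0 fell, where 1.78% of all tested probe sets rose and 0.518% fell. The log2 differences were 0.68 to 1.46 over the 13, and their summed signal was 37867 to 52265 in ko against 16104 to 26977 in wt spleens. At 1 month 0 of the 13 were called by limma, and the sum was 35345 to 37477 in ko against 32274 to 40074 in wt spleens. Their part in the members' values was not tested. The count at 4 months was 5 and 6 when ko replicate 1 and ko replicate 3 of that age were left out, 5 when wt replicate 3 was, and 4 within the high set. Over all probe sets 277, 161, 245 and 84 were called in these cases, against 621. With age the megakaryocyte markers differed from the members in ko, with 1 called higher and 0 lower and a median log2 difference of 0.28. The 1 called was Vwf, a platelet adhesion protein, at 0.64 (adjusted p 0.0294). In wt 6 fell with age, where 9.67% of all tested probe sets fell. Of 10 endothelial markers 7 were called higher with age in ko and 0 lower, where 13.6% of all tested probe sets rose. Their part in the Vwf value was not tested.

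All 10 neutrophil precursor markers rose in ko at each age, where 2.30% of all tested probe sets were called at 4 months and 0.444% at 1 month. Their summed signal was 20575 to 29119 in ko against 2123 to 4738 in wt spleens at 4 months, and 69313 to 99071 in ko against 15918 to 23129 in wt spleens at 1 month. The 24 cell cycle genes had median log2 differences between the genotypes of 0.71 at 4 months and 0.13 at 1 month. At 1 month 0 were called by limma. At 4 months 12 were called higher in ko than in wt spleens, where 1.78% of all tested probe sets were. The count of 12 became 6, 3 and 2 without ko replicates 1, 2 and 3 at 4 months, and 3, 17 and 2 without wt replicates 1, 2 and 3. Over all probe sets 277, 246, 161, 274, 991 and 245 were called in these cases in that order, against 621. The part of the neutrophil precursor and cell cycle genes in the members' values was not tested. Stem and progenitor markers, 10 genes, had 0 calls at either age by limma.

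Of 11 tested mast cell, basophil and eosinophil markers, 0 were called at 4 months by limma. At 1 month 1 was called higher in ko, Hdc at 2.52 (adjusted p 0.00986). The 2 called lower were the mast cell proteases Mcpt4 at -2.87 (adjusted p 5.17e-05) and Cpa3 at -1.08 (adjusted p 0.0152). Which cells held the Hdc transcript was not tested. The summed signal of the listed markers was 2747 to 3257 in ko and 2198 to 3117 in wt spleens at 4 months. B cell, T cell and red pulp macrophage markers, of cells that the spleen holds, gave signal in every array. No reference tissue was compared, and the pancreas transcripts of wt replicate 2 at 4 months are given above. The summed B cell signal was 47335 to 60216 in ko and 58359 to 68763 in wt spleens at 4 months. At 1 month it was 27492 to 30700 in ko and 36486 to 39870 in wt spleens, without overlap. Of 9 B cell markers 1 was called lower in ko at each age. The summed T cell signal was 9883 to 12069 in ko and 11655 to 13311 in wt spleens at 4 months. At 1 month it was 5791 to 7399 in ko and 8392 to 9271 in wt spleens, again without overlap. By limma 0 of 8 T cell markers were called at either age. None of 10 red pulp macrophage markers was called between the genotypes at either age by limma. Their summed signal was higher in ko at 4 months, at 69453 to 74840 in ko and 61167 to 62502 in wt spleens. At 1 month it was lower in ko, at 31686 to 37431 in ko and 39252 to 40943 in wt spleens.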

How the data were processed

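Total RNA of 12 spleens, 1 mouse per array, was measured on Affymetrix arrays. The deposited values are signal intensities per probe set on a linear scale, made with MAS5 per the submitters' processing notes, and the version is not given in the sources used here. Probe sets were named from the platform annotation, which gave 1 symbol to 34958, several to 932 and none to 9211 probe sets, and 64 controls were left out. From these values log2(scaled signal + 32) was computed, so differences of dim probe sets are understated. Linear models with 4 group means were fitted in limma 3.58.1 (R 4.3.3) with lmFit and eBayes with an intensity trend, giving 8 residual and 8.27 prior degrees of freedom, and tests were 2-sided. No arrays were identical, and their number limits the precision.

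The 8 members and the gene lists were chosen with earlier results of these data known, so counts over them are descriptions. The genes named beside the members were the 3 of smallest p at 4 months in each of 4 lists, with Epo, Gata2 and Il1rn, and the 10 genes most correlated with the members' mean profile. Prg2, Epx, Ccr3, Siglecf, Hdc, Mcpt4, Cpa3, Vwf and Ssbp3 were named after their values were seen. Replicate numbers are shared between groups, but the labels give them no meaning. Alternatives were other scalings, offsets, filters and prior settings, the replicate number or the array set as a block, each array set alone, and leaving out each array.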

Additional observations from a re-analysis of the deposited data

How the results depend on the processing

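The count of members called moved with the prior variance, the array set and single arrays, as did the count over all 27041 probe sets tested, which was 621 at 4 months, 1457 over both ages and 6187 for age in ko. Without an intensity trend, 3 members were called at 4 months, 4 over both ages and 4 for age in ko, and 248, 555 and 5528 over all probe sets. With quantile normalization 4 members were called for age in ko, and 5212 over all. Within the low set, with 1 array in each group except ko at 1 month, 2 members were called over both ages, and 153 over all. Within the high set 2 were called at 4 months, and 84 over all. Leaving out 1 array at a time gave 0 to 2 calls at 1 month, 3 to 7 at 4 months, 4 to 8 over both ages, 0 to 2 for the interaction, 4 to 8 for age in ko and 8 in each case for age in wt. Over all probe sets this gave 36 to 1590 calls at 1 month, 161 to 991 at 4 months and 407 to 2901 over both ages. It gave 5 to 92 for the interaction, 3653 to 6692 for age in ko and 3492 to 6375 for age in wt. With a replicate block the counts were 6 (563 over all) at 4 months, 0 (109) at 1 month and 7 (1299) over both ages. For the interaction the count was 0 (14), for age in ko 6 (5840) and for age in wt 8 (5470). Same-numbered arrays correlated by -0.20 to 0.21 after group means over 18 pairs, 4 of them over 0.1. With 3 arrays in each group these values cannot decide whether the numbers pair the mice. Tal1 at 4 months was called in all 24 alternatives, Epor and Nfe2 in all except the high set alone (adjusted p 0.0574 and 0.0684), and Klf1, Gata1 and Zfpm1 (1451046_at) lost their calls in 5, 7 and 6. The values that changed sign had no call. Lmo2 at 1 month was 0.023 with the array set as a block and 0.10 within the low set. Over arrays left out in turn, Lmo2 over both ages ran between -0.011 (without wt replicate 3 at 1 month, and -0.0099 at 4 months) and 0.11. Klf1 at 1 month ran between -0.084 and 0.19, below 0 when wt replicate 2 or 3 or ko replicate 3 of that age was left out (-0.02 and -0.06 for replicate 2 and the ko array). For the interaction, again over arrays left out in turn, Gfi1b ran between -0.10 (without wt replicate 1 at 4 months) and 0.58. It was -0.04 without wt replicate 3 at 1 month. Within the low set alone it was higher, at 1.05. Zfpm1 (1423603_at) ran between -0.042 (without ko replicate 1 at 1 month) and 0.91. For age in ko, Zfpm1 (1423603_at) ran between -0.73 and 0.23 over arrays left out, 0.23 being the value without ko replicate 3 at 1 month. Within the low set alone it was -0.88. Over the 1242 values of single members, 1136 kept direction and call, 75 lost a call, 20 gained one and 11 changed sign, and the causes were not tested. Median centring moved the array medians by -0.16 to 0.15 and quantile normalization by -0.06 to 0.11 on the log2 scale.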
